A study of Mus musculus with 4 samples.

Results

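The NF-kB subunits and their feedback inhibitors were examined as a group of 10 genes. The subunit genes were Nfkb1, Nfkb2, Rel, Rela and Relb, and the inhibitor genes were Nfkbia, Nfkbib, Nfkbie, Nfkbiz and Tnfaip3. The 10 genes were matched by symbol, but the group was chosen with earlier results of these data known. Each was found once among the 17956 rows of the deposited table that describe single loci, and all 10 passed the filter on low values, which asked for 10 or more in 2 or more libraries, with 386 the lowest single value of any member. The RNA came from Lin-Kit+ bone-marrow cells of C57BL/6 mice, a fraction depleted of mature blood lineages and selected for the Kit receptor, with 2000000 cells harvested for each library. The wild-type (WT) and Asxl1-/- (KO) groups held 2 libraries each. The labels give no age, sex, treatment or statement of how the allele was made, and separate animals are not stated. The Xist and Ddx3y loci nevertheless told the libraries of a genotype apart, so neither genotype is a single mouse sequenced in duplicate, and the spread behind the p-values includes variation among mice, sex among it.

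NF-kB transcription factors are dimers of 5 related subunits. RelA, c-Rel and RelB carry transactivation domains, whereas the products of Nfkb1 and Nfkb2 are made as precursors whose inhibitory ankyrin repeats are removed to give the mature subunit. In resting cells the classical IkB proteins hold dimers in the cytoplasm until the IKK kinase marks them for degradation, and in marrow the pathway serves emergency myelopoiesis, lymphoid survival and the innate response of progenitors. Several genes of the pathway, among them those for IkB-alpha and the ubiquitin-editing enzyme TNFAIP3, are themselves transcribed in response to NF-kB and so form negative feedback loops.

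Depth, as recovered reads, was 46597871 and 49764454 for WT but higher for KO, at 83586916 and 76688583. The Asxl1 value was 9742 and 9472 in WT against 146 and 135 in KO, which matches the labels, and no member lies on chromosome 2, where Asxl1 lies. Replicate 1 of each genotype carried a high value of the Xist locus (103006 in WT and 89290 in KO), and replicate 2 a high value of the Ddx3y locus (7385 and 7947), although WT replicate 2 also held 2123 at the Xist locus against 147 in KO replicate 2. Differences within each replicate are therefore given beside the pooled ones. Kit ranged from 16149 to 18889 over the 4 libraries and was not called. Of 10 stem and progenitor markers, however, 0 rose and 4 fell, where 11.9% of all tested loci rose and 8.97% fell. The median was -0.30, and 1 marker was higher and 8 lower at an unadjusted p under 0.05 (limma). The 4 called markers were Ly6a, Mecom, Hlf and the locus that joins Cd34 to microRNA genes. Ly6a, for example, was at 755 and 566 in WT but at 82.6 and 127 in KO. The lower count was 2 without WT replicate 1 and 7 by DESeq2. Cd3e, a T-cell marker that a lineage depletion should remove, ranged from 9.10 to 32.4. The libraries measure whole populations, so fewer cells of a type and less RNA per cell cannot be told apart.

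Transcripts of 3 inhibitor genes and 2 subunit genes were higher in KO, 1 inhibitor gene was lower, and 4 members did not pass the test. Nfkbiz rose 2.28-fold, Tnfaip3 2.13-fold and Nfkbia 1.84-fold. Rel and Nfkb2 rose by smaller amounts, 1.52-fold and 1.48-fold, and Nfkbie fell to 0.782 of its WT level. Nfkb1, Rela, Relb and Nfkbib did not pass. Thus 5 of 10 members were called higher, where 11.9% of the 13764 tested loci were, and 1 was called lower, where 8.97% of all were. In either direction 6 members were called, against 20.9% of tested loci. A call is a Benjamini-Hochberg adjusted p under 0.05 over all tested loci from limma on log2(value + 1), and values are read counts that the authors scaled by 1 factor per library. The median log2 fold change of the members was 0.39, and that of all tested loci was -0.01.

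**Figure D1:**
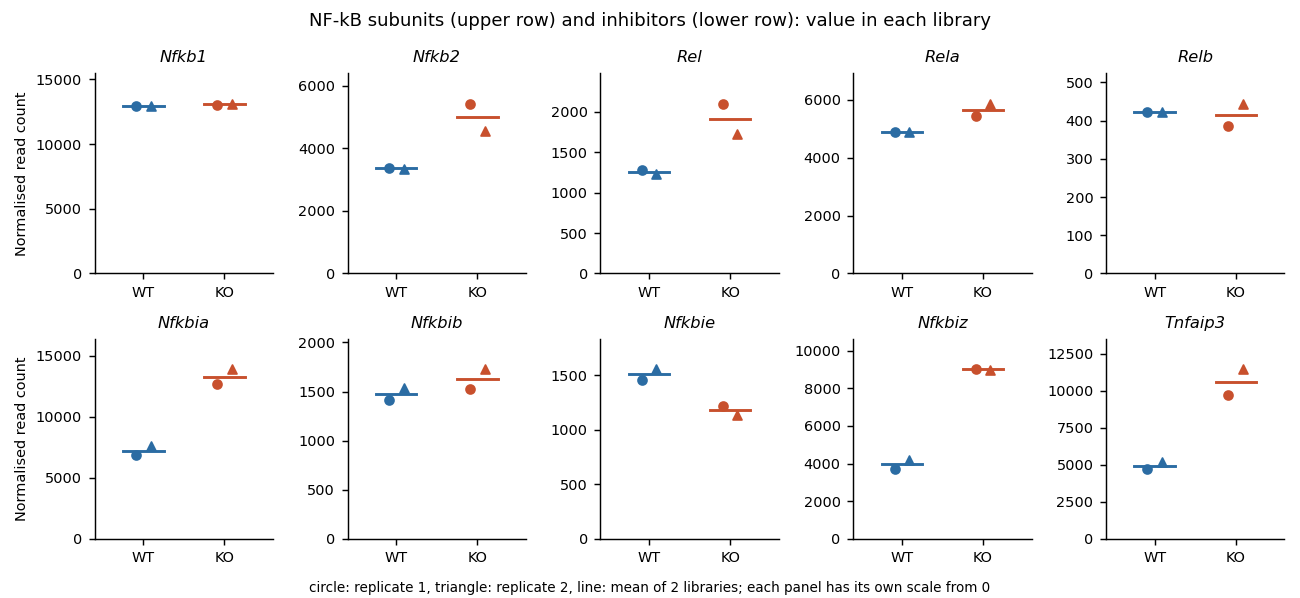
Normalised read count (y axis, from 0, own scale per panel) of each member in the WT and KO libraries (x axis); circles are replicate 1, triangles replicate 2 and lines the mean of 2 libraries. Nfkbia, Nfkbiz and Tnfaip3 lay far apart between the genotypes, whereas the Nfkb1 libraries lay between 12932 and 13109 in both.

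Among the inhibitors, Nfkbiz changed most in the fit of all 4 libraries, although within replicate 2 Tnfaip3 rose more (1.15 against 1.09 on the log2 scale). Nfkbiz encodes IkB-zeta, a nuclear member of the IkB family that binds the p50 homodimer and acts on secondary response genes, activating some of them. Its locus (chromosome 16, 55811489 to 55838754, mm9) is listed together with the name IkappaB-zeta, another name of the same protein. The normalised read count was 3692 and 4209 in WT against 9013 and 8985 in KO. The KO libraries were nearly alike, both well above the higher WT library, and the gap between the WT libraries (0.19 on the log2 scale) was small beside the difference between genotypes. The log2 fold change was 1.19 ± 0.07 (SE; adjusted p = 0.00125, limma), with 1.29 within replicate 1 and 1.09 within replicate 2, and 3.18% of all tested loci had a higher one.

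Tnfaip3 (chromosome 10, 18720716 to 18735216) encodes an enzyme that edits ubiquitin chains on signalling proteins and thereby ends NF-kB signalling. Its value was 4736 and 5157 in WT against 9710 and 11465 in KO. Both KO libraries lay above both WT libraries, and the KO libraries differed from each other by 0.24 on the log2 scale. The log2 fold change was 1.09 ± 0.09 (adjusted p = 0.00194, limma), with 1.04 and 1.15 within the replicates.

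Nfkbia (chromosome 12, 56590395 to 56593634) encodes IkB-alpha, the inhibitor that is degraded on stimulation and then resynthesised. It was measured at 6894 and 7570 in WT and at 12659 and 13901 in KO. The genotypes did not overlap. The log2 fold change was 0.88 ± 0.07 (adjusted p = 0.00185, limma), and the differences within replicate 1 and within replicate 2 were both 0.88. The calls of Nfkbia, Nfkbiz and Tnfaip3 held under all 15 other settings, those without each library included.

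The other cytoplasmic inhibitors did not follow Nfkbia. Nfkbie (chromosome 17, 45692664 to 45700117), the gene for IkB-epsilon, was at 1458 and 1555 in WT and at 1221 and 1136 in KO. Both KO libraries lay below both WT libraries. The log2 fold change was -0.35 ± 0.09 (adjusted p = 0.0373, limma), with -0.26 and -0.45 within the replicates. That call was lost without WT replicate 1 (adjusted p = 0.137, limma), without WT replicate 2 (adjusted p = 0.211) and without KO replicate 2 (adjusted p = 0.0656), while the value stayed between -0.41 and -0.30. Nfkbib, the gene for IkB-beta, shares its locus (chromosome 7, 29541192 to 29551543) with the predicted gene Gm6537, and their reads cannot be divided. Its values were 1414 and 1539 in WT and 1530 and 1729 in KO, so the genotypes overlapped, and the log2 fold change of 0.14 had a 95% interval of -0.09 to 0.37.

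Among the subunits, Rel and Nfkb2 rose. Rel (chromosome 11, 23641728 to 23670970) encodes c-Rel, a subunit known best from lymphoid and myeloid cells. Its value was 1282 and 1227 in WT against 2099 and 1724 in KO. Both KO libraries lay above WT, and they differed more from each other (0.28 on the log2 scale) than the WT libraries did (0.06). The log2 fold change was 0.60 ± 0.11 (adjusted p = 0.0173, limma), with 0.71 and 0.49 within the replicates. The call was lost without WT replicate 1 (adjusted p = 0.0690) and without WT replicate 2 (adjusted p = 0.0816, limma).

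Nfkb2 encodes the precursor of the non-canonical pathway. In the table it stands as Nfkb2+AK029443+Psd (chromosome 19, 46378082 to 46401646), so reads of the neighbouring gene Psd, whose product activates an ARF GTPase, are counted with it and cannot be divided from its own. The locus was at 3375 and 3353 in WT and at 5429 and 4573 in KO. The WT libraries were nearly alike and both KO libraries were higher. The log2 fold change was 0.57 ± 0.09 (adjusted p = 0.0105, limma), with 0.69 and 0.45 within the replicates, and the call was lost without WT replicate 1 (adjusted p = 0.0526).

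The remaining subunits differed little. Rela (chromosome 19, 5637489 to 5648130), the gene for the main transactivating subunit, was at 4881 and 4907 in WT and at 5449 and 5866 in KO. The genotypes did not overlap, but the log2 fold change of 0.21 ± 0.06, with 0.16 and 0.26 within the replicates, did not pass (adjusted p = 0.0546, limma). It passed with DESeq2 on the recovered reads (adjusted p = 0.0239) and without KO replicate 1 (adjusted p = 0.0229). Nfkb1 (chromosome 3, 135247618 to 135354511), whose product is processed to the partner subunit of RelA, was at 12946 and 12932 in WT and at 13038 and 13109 in KO. Its KO libraries lay above WT by a narrow margin, and the log2 fold change of 0.01 had a 95% interval of -0.09 to 0.12. Relb (chromosome 7, 20191570 to 20214787), the partner of the Nfkb2 product, had the fewest reads of the 10, with values of 424 and 422 in WT and of 386 and 444 in KO. Its genotypes overlapped, and the interval of its log2 fold change, -0.36 to 0.30, was the widest of the 10, on 327 to 538 reads per library.

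The WT and KO libraries did not overlap for 8 of 10 members, 7 of them higher in KO. Across all tested loci 66.1% were separated in either direction, so the count of 8 is close to the background. By direction, 4467 of the 13764 tested loci were separated and higher in KO, and 4629 were separated and lower. With 2 libraries against 2 no single exact permutation test over the libraries could pass, and the calls rest on limma's spread shared across loci.

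**Figure D2:**
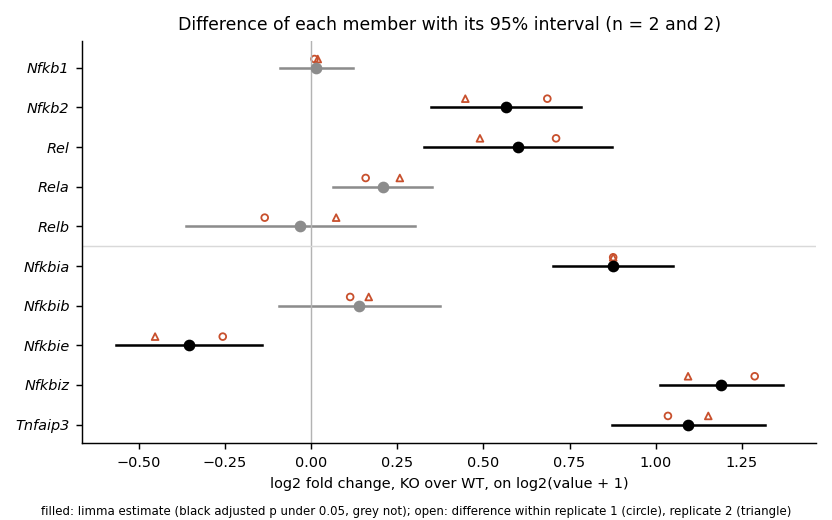
Log2 fold change of KO over WT (x axis) for each member (y axis), with the 95% interval of the limma fit; black passed at an adjusted p under 0.05, grey did not, and open symbols give the difference within replicate 1 (circle) and replicate 2 (triangle). Nfkbiz, Tnfaip3 and Nfkbia stand to the right at 1.19, 1.09 and 0.88, and Nfkbie to the left at -0.35.

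Levels of different genes were compared per kilobase of exon, with lengths from GENCODE release M21. The gene models behind the deposited mm9 counts are not stated, so these levels are approximate. The merged loci of Nfkb2 and Nfkbib were divided by the exon length of Nfkb2 or Nfkbib alone. Their levels, and the sums and shares that hold them, therefore include reads of the genes merged with them. In WT, Nfkbia was highest at 4583 ± 303 normalised reads per kb (SD, n = 2), followed by Nfkb1 (3137 ± 2.48), Rela (1802 ± 6.56), Tnfaip3 (1076 ± 64.7), Nfkbiz (955 ± 88.3), Nfkb2 with Psd (797 ± 3.75), Nfkbib (694 ± 41.5), Nfkbie (619 ± 28.1), Relb (191 ± 0.486) and Rel (168 ± 5.23). The WT libraries of neighbours in this order did not overlap. In KO, Nfkbia stood at 8416 ± 557 and Nfkb1 at 3170 ± 12.2, and then Tnfaip3 (2304 ± 270), Nfkbiz (2175 ± 4.77) and Rela (2083 ± 109) followed. Tnfaip3 and Nfkbiz, both below Rela in WT, had means above it in KO, where the libraries of Tnfaip3 and Nfkbiz overlapped. The order among these 3 was not firm: the higher Rela library (2160) lay just under the lower Nfkbiz library (2171) and above the lower Tnfaip3 library (2113). Rel and Relb, the lowest pair, changed places, at 256 ± 35.6 and 188 ± 18.6 in KO.

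The balance of inhibitor transcripts differed between the genotypes. Summed per kb of exon over the 5 inhibitors, the level was 7556 and 8299 in WT against 13534 and 14755 in KO. The same sum over the 5 subunits was 6099 and 6092 in WT against 6909 and 6854 in KO. Among the 3 cytoplasmic IkB transcripts, Nfkbia made up 77.6% and 77.9% of the sum in WT and 86.8% and 87.3% in KO. The share of Nfkbie was 10.6% and 10.4% in WT against 5.43% and 4.63% in KO. Such shares depend on the other transcripts in the sum. That of Nfkbib went from 11.8% and 11.7% in WT to 7.78% and 8.06% in KO, although its own log2 fold change was 0.14. Of the sum over all 5 inhibitors, Nfkbia made up 57.8% in both WT libraries and 59.3% and 59.7% in KO. Within the subunits, Nfkb1 made up 51.5% in both WT libraries and 45.8% and 46.4% in KO.

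**Figure D3:**
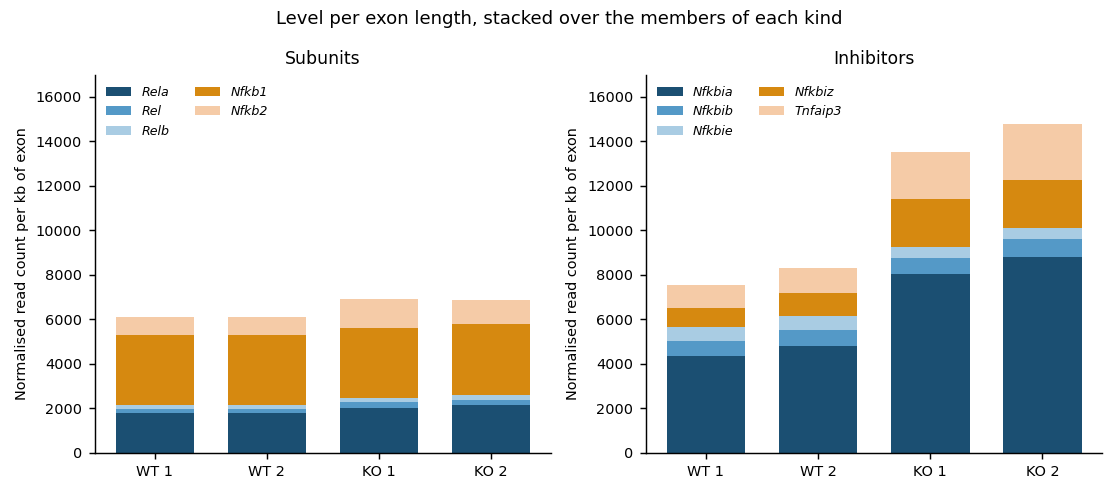
Normalised read count per kb of exon (y axis), stacked over the 5 subunit genes (left) and the 5 inhibitor genes (right), in each of the 4 libraries (x axis). The inhibitor stacks reach 13534 and 14755 in KO against 7556 and 8299 in WT, and the subunit stacks stay between 6092 and 6909.

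Ratios of reads within a library do not depend on how libraries are scaled. For each Rela read there were 1.41 and 1.54 Nfkbia reads in WT and 2.32 and 2.37 in KO. The ratio of Tnfaip3 to Rela was 0.970 and 1.05 in WT against 1.78 and 1.95 in KO, and that of Nfkbiz to Rela was 0.756 and 0.858 in WT against 1.65 and 1.53 in KO. For Nfkbie the ratio to Rela was lower in KO, at 0.224 and 0.194 against 0.299 and 0.317. The ratio of Nfkbia to Nfkbie, which sets 2 inhibitors against each other, was 4.73 and 4.87 in WT against 10.4 and 12.2 in KO. In all of these the genotypes were separate, while the ratio of Nfkbib to Rela overlapped between them, at 0.290 and 0.314 in WT and 0.281 and 0.295 in KO. Separation alone says little, as 66.1% of tested loci were separated by their own values, and no such share was computed for ratios. The ratio of the uncalled Relb to Rela was separate too, at 0.0868 and 0.0860 in WT and 0.0708 and 0.0757 in KO.

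Promoter sequence was read for the members because NF-kB is known to act on the promoters of its own pathway. RefSeq start sites of build GRCm38.p6 were on hand for 7 members (Nfkb2, Rel, Rela, Nfkbia, Nfkbib, Nfkbie and Tnfaip3), and Nfkb1, Relb and Nfkbiz had no entry. The NF-kB consensus site, searched by its degenerate form on both strands in the 250 bases before each start, was found in 2382 of 32851 promoters (7.25%) and, by gene, at 1 or more start sites of 2225 of 27025 genes (8.23%) and of 5 of these 7 members. It was found in neither Rela nor Nfkbib. The 130 bases before the start are shown for the 5 members with a match, all of which were called, in the direction of the gene, with matched bases in capitals, and overlapping matches run together. The windows are chr12:55492648-55492777 (minus strand) for Nfkbia, chr10:19015411-19015540 (minus) for the first start of Tnfaip3, chr11:23770970-23771099 (minus) for Rel, chr19:46304607-46304736 (plus) for the first start of Nfkb2, and chr17:45555570-45555699 (plus) for Nfkbie.
Nfkbia: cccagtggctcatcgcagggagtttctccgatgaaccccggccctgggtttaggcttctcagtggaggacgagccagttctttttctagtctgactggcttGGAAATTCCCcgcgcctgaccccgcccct
Tnfaip3: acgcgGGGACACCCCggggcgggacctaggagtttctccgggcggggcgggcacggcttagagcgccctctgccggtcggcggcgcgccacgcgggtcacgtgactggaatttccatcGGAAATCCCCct
Rel: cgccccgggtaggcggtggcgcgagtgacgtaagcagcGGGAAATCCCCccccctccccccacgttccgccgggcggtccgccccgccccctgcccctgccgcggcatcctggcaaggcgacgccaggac
Nfkb2: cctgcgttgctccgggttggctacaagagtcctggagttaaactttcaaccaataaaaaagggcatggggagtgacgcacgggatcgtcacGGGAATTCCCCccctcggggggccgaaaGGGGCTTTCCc
Nfkbie: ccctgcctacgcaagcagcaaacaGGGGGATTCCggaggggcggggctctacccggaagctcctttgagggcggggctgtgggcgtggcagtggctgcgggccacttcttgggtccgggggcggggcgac
The match begins 29 bases before the start in Nfkbia, 12 and 125 in Tnfaip3, 91 and 92 in Rel, 11, 38 and 39 in Nfkb2 and 106 in Nfkbie. Nfkbie, with a match, was lower in KO, while the other 4 genes shown were higher. A match describes letters only; no binding was measured in this table.

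The other genes of the pathway were read from lists by role, in the same fit, and each count stands against the 11.9% of tested loci called higher and the 8.97% called lower. Of 13 genes for IKK kinases, upstream kinases and their scaffolds or binding partners, 6 rose (11.9% of all loci did) and 0 fell, with a median of 0.23. The members of the core IKK complex were not among them: Ikbkb had a log2 fold change of 0.10, Chuk of 0.09 and Ikbkg of 0.03. The largest rises were those of Tab3, a ubiquitin-binding partner of the kinase TAK1 (0.39 ± 0.06), Map3k8, which links NF-kB signals to ERK (0.37 ± 0.10), Map3k3 (0.32 ± 0.05) and Ikbke, an IKK-related kinase (0.31 ± 0.07). Without WT replicate 1 or without WT replicate 2 limma called 0 of the 13 (5 and 7 higher at an unadjusted p under 0.05), and with total-read scaling it called 3. Of 23 adaptors and ubiquitin ligases 5 rose, where 11.9% of all loci did, and 0 fell (median 0.13), with Irak2 (0.44 ± 0.10), Bcl10 (0.38 ± 0.05), Birc3 (0.33 ± 0.09) and the merged locus of Ripk1 and Serpinb6a (0.32 ± 0.05) the largest, and 0 were called higher without WT replicate 1 or without WT replicate 2 (5 at an unadjusted p under 0.05 in both). In the fit of all 4 libraries 0 genes of either list were lower at an unadjusted p under 0.05 (limma), and edgeR and DESeq2 called 0 lower too. The calls of Map3k8 and Birc3 were lost in 11 and 9 of the 15 other settings.

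Nfkbid, the gene for the nuclear IkB-NS, was the 1 called gene of 7 IkB-like and accessory factors. Its value was 3185 and 3334 in WT against 6547 and 5347 in KO, with both KO libraries above WT, and its log2 fold change was 0.86 ± 0.10 (adjusted p = 0.00475, limma). The median of that list was -0.03, and Bcl3, another nuclear IkB gene, was at 727 and 462 in WT and 391 and 691 in KO, with overlapping genotypes.

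Of 21 other negative regulators 5 rose and 3 fell, with a median of 0.08. The background was 11.9% higher and 8.97% lower, so the count of falls was near it. Usp18, a deconjugase that is also an interferon-stimulated gene, fell from 1050 ± 55.8 to 240 ± 60.4 (SD, n = 2; log2 -2.15 ± 0.19), and the TNFAIP3-binding protein gene Tnip3 fell by 1.50 on the log2 scale at levels of 54.4 and 41.5 in WT and 14.4 and 18.2 in KO. That call was lost in 5 of 14 other settings (DESeq2, no filter, and without WT replicate 1, WT replicate 2 or KO replicate 1). Nlrc3 fell as well (-0.48 ± 0.09), whereas Zc3h12a, which encodes a ribonuclease that degrades inflammatory transcripts, rose (0.52 ± 0.09). The higher count was 2 and the lower count 1 without either WT replicate, and the higher count was 3 with upper-quartile or total-read scaling, limma-voom or no filter.

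Ligand genes were mostly uncalled: 1 of 10 tested rose and 0 fell by limma (2 higher and 0 lower at an unadjusted p under 0.05; edgeR and DESeq2 called 0 lower), with a median of 0.04. A single rise among 10 is near the 11.9% of all loci. Tnf, the classical activator of the pathway, was at 1163 and 1290 in WT and 1633 and 1959 in KO (0.55 ± 0.11, adjusted p = 0.0244, limma), a call that was lost without either WT replicate. Among receptors 6 of 19 rose, against 11.9% of all loci, and 0 fell by limma (3 lower at an unadjusted p under 0.05; edgeR and DESeq2 called 0 lower), with a median of 0.20, and with the lipopolysaccharide coreceptor gene Cd14 (1.66 ± 0.24), the decoy receptor gene Il1r2 (1.41 ± 0.18), Il18rap (1.10 ± 0.07) and Tlr2 (0.71 ± 0.09) the largest. With total-read scaling 1 receptor gene was called lower.

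Among 38 tested genes known to be induced by NF-kB, 11 rose and 3 fell, with a median of 0.24. All tested loci gave 11.9% and 8.97%, so the lower count was near the background. The chemokine gene Cxcl2 rose by 2.18 ± 0.14, the inflammasome sensor gene Nlrp3 by 1.66 ± 0.13 and the urokinase receptor gene Plaur by 1.50 ± 0.09, while Ccl5 fell from 73.5 ± 0.456 to 32.8 ± 1.41 (-1.14 ± 0.28). The Ccl5 call was lost in 6 of 15 other settings: with DESeq2, with no filter and without each of the 4 libraries. The anti-apoptotic gene Bcl2 and the merged locus of Zbtb22 and the peptide-loading gene Tapbp were the other called falls, by 0.67 and 0.32 on the log2 scale. Reads of Zbtb22 and Tapbp cannot be divided. Both falls are named outside the naming rule because the count was small. Other well-known targets did not pass. The merged locus of H1f0 and Icam1, whose reads cannot be divided, was at 1361 and 1198 in WT and 1050 and 1272 in KO. Sod2 was at 4495 and 4620 in WT and 3918 and 4737 in KO. At both loci the genotypes overlapped. The lower count was 1 without either WT replicate. Earlier results of these data had shown some of these genes, so their direction is not independent evidence. Mmp9 was among the 11 rises and is also counted with the neutrophil markers.

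**Figure D4:**
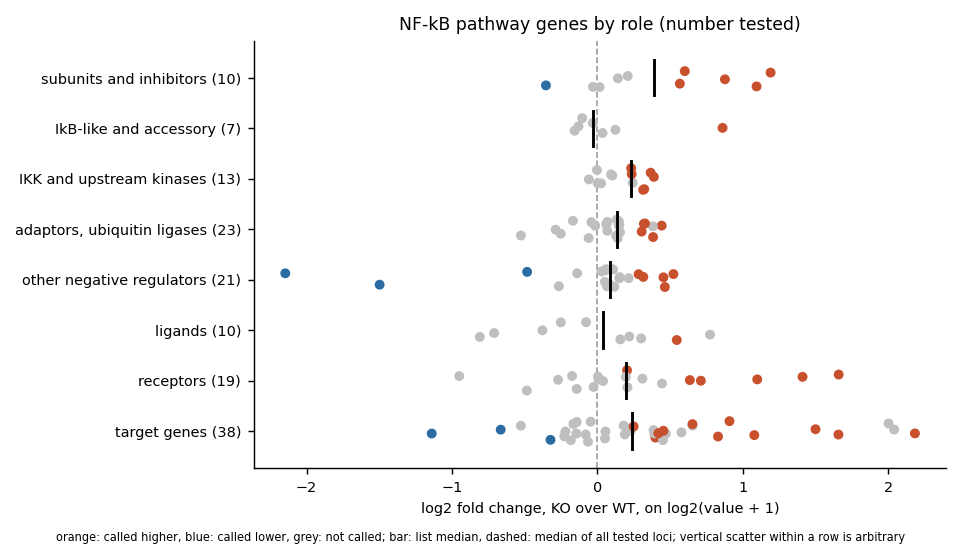
Log2 fold change of KO over WT (x axis) for each tested gene of the pathway, by role (y axis); orange was called higher, blue lower and grey neither, bars mark list medians and the dashed line the median of all tested loci. The median of the 10 members, 0.39, lies above the medians of the 7 lists, which run from -0.03 to 0.24.

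By a distance between centred log2 values over the 4 libraries, the named loci most like Nfkbiz were Osm (distance 0.06), Cd33 (0.07) and Osgin1 (0.08). Osm, a cytokine gene, was at 1859 and 2023 in WT and 4295 and 4334 in KO, and Cd33, a myeloid surface receptor gene, at 2571 and 2860 in WT and 6021 and 6374 in KO. Over 4 libraries many loci share such a pattern.

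Other transcripts moved in the same libraries, where 11.9% of all tested loci were called higher and 8.97% lower. Of 11 neutrophil markers 10 rose and 0 fell, with a summed level of 1056175 and 1176908 in WT and 2115254 and 1975297 in KO, and none was at 0. Of 8 erythroid markers 4 rose (65386 and 71125 in WT, 116922 and 132181 in KO; 2 without WT replicate 1). Of 8 mast cell, basophil and eosinophil markers the eosinophil granule genes Prg2 and Epx rose and 5 others fell, with a summed level of 131794 and 130945 in WT and 255660 and 243102 in KO. Of 23 immediate-early genes, a class that cell handling can induce as well, 20 rose and 1 fell, with a summed level of 205577 and 226069 in WT and 338106 and 395195 in KO; 16 rose and 0 fell without either WT replicate (limma; 1 lower at an unadjusted p under 0.05). Monocyte and macrophage markers had 1 of 12 higher and 5 lower (27923 and 28183 in WT, 25409 and 25900 in KO; 1 lower without either WT replicate), and B lineage markers 0 of 10 higher and 4 lower (89285 and 88180 in WT, 69187 and 47936 in KO). At an unadjusted p under 0.05, 0 neutrophil markers were lower and 0 B lineage markers higher, and limma called 0 B lineage markers without WT replicate 1 or without WT replicate 2 (7 and 6 lower unadjusted) but 8 lower without KO replicate 2. The lower count of the mast cell list was 1 without either WT replicate. Called falls also numbered 3 of 11 T and NK lineage, 2 of 9 dendritic cell and 2 of 8 stroma and endothelium markers, and 1 of 7 megakaryocyte markers rose. Without WT replicate 1 these counts were 1, 1, 0 and 0, and without KO replicate 2 they were 3, 3, 2 and 6 (limma; at an unadjusted p under 0.05 the counts of 0 were 2 and 1). The part of these transcripts in the changes of Nfkbia, Nfkbiz, Tnfaip3, Rel, Nfkb2 and Nfkbie was not tested.

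**Figure D5:**
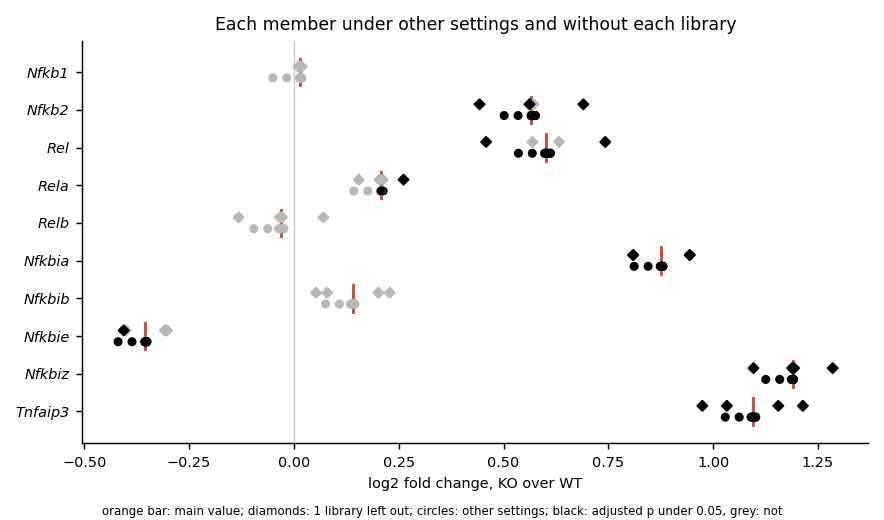
Log2 fold change of KO over WT (x axis) for each member (y axis) under the 15 other settings; the orange bar is the main value, diamonds leave out 1 library, circles are other settings, and black marks an adjusted p under 0.05. Nfkbia, Nfkbiz and Tnfaip3 are black throughout, between 0.81 and 1.29, whereas Nfkbie is grey without 3 of the 4 libraries.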

How the data were processed

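The authors deposited a scaled signal for each locus in each library. It is a read count times a constant of that library: dividing by the library's smallest nonzero entry gave whole numbers, to within 0.001, for 100% of entries. Reads were aligned with STAR 2.3.1t to mm9, per the submitters' processing notes; which counter, annotation, strand setting and scaling tool were used is not given in the sources used here. Of 22849 rows, 4893 that join neighbouring loci with a comma were left out. Tests covered the 13764 single loci that reached 10 in 2 or more libraries, with limma 3.58.1 (mean-variance trend, log2(value + 1), genotype only, R 4.3.3) and Benjamini-Hochberg adjustment at 0.05. Fold changes on this scale understate low loci. A count of 0 allows up to 3 reads, a floor that covers counting error only.

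Alternatives were the edgeR 4.0.16 quasi-likelihood test (TMM or RLE), DESeq2 1.42.0 and limma-voom on the recovered reads, upper-quartile and total-read scaling, pseudocounts of 0.5 and 8, other filters, each library left out, and a replicate block. The limma fit and the edgeR fit with TMM were also run on simulated counts. All simulated loci shared the same dispersion, with no difference of sex or replicate built in, so that run does not give the error rates in these libraries. The members and lists were chosen with earlier results of these data known; the immediate-early list was added after the data were examined. All members are named, and from each pathway list up to 4 called genes with the largest change; the 3 loci most like the member that changed most leave out predicted and clone names. Marker genes, the uncalled IKK genes Ikbkb, Chuk and Ikbkg, and Bcl3, Icam1 and Sod2 were named after their values were seen. Older gene names were matched through RefSeq synonyms. One marker gene is not reported here.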

Additional observations from a re-analysis of the deposited data

How the results depend on the processing

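Of the 6 called members, Nfkbia, Nfkbiz and Tnfaip3 kept their call and direction in all 15 other settings, and Nfkb2, Rel and Nfkbie lost theirs only where a library was left out. The count of higher members was 3 to 6 and that of lower members 0 to 1 with 1 library left out. All tested loci gave 603 to 1714 higher and 266 to 1542 lower calls without 1 library. In such fits the lone library is assumed to vary like the others, and the cause of the loss was not tested. Total-read scaling called 1330 loci higher and 2060 lower, so that 39.2% of calls were higher against 57.0% in the main fit, and edgeR with TMM on the recovered reads called 1619 higher and 1220 lower. Nfkb1 turned to -0.017 with upper-quartile scaling and to -0.050 with total-read scaling, and Relb ranged from -0.13 to 0.070 with 1 library left out, positive without KO replicate 1; neither was called in any setting. In the pathway lists, leaving out 1 library gave 0 to 6 higher genes of the kinase list, 0 to 5 higher adaptors, 2 to 5 higher and 1 to 3 lower negative regulators, 0 to 1 higher and 0 to 1 lower ligands and 1 to 3 lower targets. Total-read scaling gave 3 higher genes of the kinase list, 3 higher negative regulators and 1 lower receptor. Upper-quartile scaling, limma-voom and no filter each gave 3 higher negative regulators, and DESeq2, a pseudocount of 8 and a filter of 50 each gave 2 higher ligands.

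The labels give the replicate numbers no meaning beyond a name, although in both genotypes replicate 1 was the library high at the Xist locus and replicate 2 the one high at the Ddx3y locus. Deviations of the same-numbered libraries correlated at 0.25 across all tested loci and at 0.58 across the 10291 loci with higher mean values (Pearson). By rank the correlations were weaker, at 0.11 and 0.15 (Spearman). Loci are not independent replicates. With the replicate block 1906 loci were higher and 1533 lower, the same 6 members were called and Rela was called as well (0.21, adjusted p = 0.0452, limma).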

Other observations

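Rows that join a member to its neighbour held few reads. The row of Nfkbie with Slc35b2 had 5 and 2 reads in WT and 7 and 16 in KO, that of Nfkbiz with Fam55c 0 and 4 in WT and 2 and 5 in KO, and that of Nfkb2 and Psd with Fbxl15 and Cuedc2 3 and 0 in WT and 0 and 0 in KO.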
